A study of Mus musculus with 4 samples.

Results

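The genes described are the chaperones and endoplasmic reticulum stress genes on a whole mouse genome array: every gene named in the array files as a heat shock protein of the Hspa, Hspb, Hspd, Hspe, Hsph or Hsp90 type, a J protein (Dnaja, Dnajb, Dnajc), a disulfide isomerase Pdia1 to Pdia6 or a CCT subunit Cct2 to Cct8, together with Ddit3, Atf4, Atf6, Xbp1, Ern1, Herpud1, Edem1, Calr, Canx, Sdf2l1, Creld2, Manf, Hyou1 and Sel1l. The rule found 102 of the 27376 gene names on the array, carried by 185 of its 41174 probes, and used no measured value. Of the 102 genes, 47 were placed in the cytosol, 32 in the endoplasmic reticulum, 8 in mitochondria and 15 in none of these, from textbook location. A filter on dim probes left 96 genes and 166 probes. The 6 genes without a tested probe were Cct8l1, Dnajb7, Dnajb8 and Hspb3 of the cytosolic set, Pdia2 of the endoplasmic reticulum and Dnajc22.

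Molecular chaperones bind proteins that are not yet folded, or have lost their fold, and help them to reach or regain it. Those of the cytosol include the Hsp70 and Hsp90 machines, the J proteins that hand clients to Hsp70, the small heat shock proteins and the ring-shaped chaperonin CCT, and many are induced by heat shock factor. In the endoplasmic reticulum, where secreted and membrane proteins fold, an overload of clients activates the unfolded protein response: the sensors Ern1 (IRE1), Atf6 and Eif2ak3 (PERK) lead to the transcription factors Xbp1, Atf6 and Atf4, which raise the chaperones, the disulfide isomerases and the degradation machinery of that organelle. Mitochondria hold a separate set, made in the cytosol and imported, with Hspa9, Hspd1 and Hspe1 at its centre. White fat secretes adipokines and lipid-handling enzymes in bulk, and stress of the endoplasmic reticulum is a much studied feature of obese adipose tissue.

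White adipose tissue was taken from female C57BL/6 mice that were 8 weeks old when the diets began and were fed for 18 weeks. The HFD group received the high fat chow High fat diet 32, and the LFD group the standard chow CE2, both from CLEA Japan. Each group was measured on 2 one-colour arrays, and each sample was tissue mixed from 3 mice. The fat depot is not named in the labels, which also do not say whether the 2 samples of a diet were separate mixtures, so the p-values reflect only how far these samples lie apart, and that spread may be technical. All values are log2 signals relative to the 75th percentile of their array, on which 1 unit is a doubling of the spot's brightness, and changes are HFD minus LFD. They were tested with limma, p-values were adjusted by Benjamini-Hochberg across the 26057 tested probes, the threshold was 0.05, and each gene was represented by its brightest tested probe. Errors are standard errors (SE) of the change from that fit, over 2 arrays per diet. The level of one probe is not comparable with that of another, so only changes are set side by side.

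The arrays behaved alike for these genes: over the tested member probes, Pearson's r across probes was 0.996 between the LFD arrays, 0.997 between the HFD arrays and 0.984 to 0.987 between diets. HFD replicate 2 had the fewest probes above background, 21312 against 26419 to 27936 on the other arrays. All 10 adipocyte markers were above background on all arrays, and their summed signal, in units of the 75th percentile, was 1543 and 1669 in LFD and 1467 and 1574 in HFD, so the diets overlapped in the sum. Of the 10, Retn (resistin) fell by 0.90 with a limma adjusted p of 0.0281 and none rose. On both HFD arrays 4 were lower and 2 higher than on both LFD arrays, against 32.7% and 36.2% of all genes. Adipoq, Pnpla2 and Cfd had changes of -0.32, -0.38 and -0.43, and Lep (leptin) of 2.18, without passing. Of 10 macrophage markers, 7 rose and none fell, with summed signals of 207 and 186 in LFD and 355 and 368 in HFD. Of 9 mesothelium markers, 9 fell, from summed signals of 39.2 and 41.1 to 13.5 and 10.7. Brown fat markers differed even between the LFD arrays, at 109 and 44.2, against 8.65 and 10.9 in HFD, and 4 of 7 fell. In bulk tissue, fewer cells of a type and less RNA per cell cannot be told apart, and the part of these shifts in the changes given here was not tested.

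Few of the chaperone and stress genes passed the threshold. Hspb7, Hspb2, Dnajc6 and Dnajb13 rose in HFD, Dnaja3 and Dnajc28 fell, and the other 90 did not pass. The share called, 6 of 96 or 6.25%, compares with 11.4% of all 17624 tested genes. By direction, 4 of 96 members rose against 5.78% of all genes, and 2 fell against 5.61%. At an unadjusted p under 0.05 there were 29 of 96 members, against 34.9% of all genes. For 71 of 96 members the arrays of the diets did not overlap, against 68.9% of all genes: 43 were higher (36.2% of all genes) and 28 lower (32.7%). A change of at least 1.5-fold was reached by 11 of 96, against 20.2% of all genes. All 6 called members kept their sign in every alternative, though with non-overlapping diets leaving out 1 array could not turn it. The calls depended on the arrays and settings used. Without HFD replicate 1, and likewise without HFD replicate 2, none of the 96 passed (11 and 10 at an unadjusted p under 0.05) and 10 and 9 genes of the whole array rose. Without LFD replicate 1 Hspb7 alone passed, and without LFD replicate 2 Hspb7 and Dnajb13. Hspb2 did not pass under median scaling, Dnajc28 did not when a gene's probes were averaged, and no gene of the array passed when all probes were tested without the filter on dim ones.

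Most genes of the endoplasmic reticulum had a small change above 0, and most of the mitochondrial genes had a change below 0. In the endoplasmic reticulum 25 of 31 tested genes had a change above 0, against 52.2% of all genes, with a median of 0.18 and no call by limma (10 at an unadjusted p under 0.05). In mitochondria 7 of 8 had a change below 0, against 47.8% of all genes, with a median of -0.35 and 1 call, Dnaja3. In the cytosol 22 of 43 were above 0, with a median of 0.01 and 3 calls, all rises. Of all genes 5.78% were called higher and 5.61% lower. The median over all tested genes was 0.02. Taken for each pair of an HFD and an LFD array, the median ranged from 0.13 to 0.26 for the endoplasmic reticulum, from -0.41 to -0.33 for mitochondria and from -0.04 to 0.13 for the cytosol. Quantile normalization and median scaling moved the median of all genes to -0.03 and -0.07, the latter by the same amount for every gene. The endoplasmic reticulum median was then 0.10 under median scaling, with 22 of 31 genes above 0 under both settings. In mitochondria 7 of 8 genes stayed below 0, and the cytosol median was -0.05 and -0.08, close to that of all genes. The difference between compartments was not tested.

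**Figure D1:**
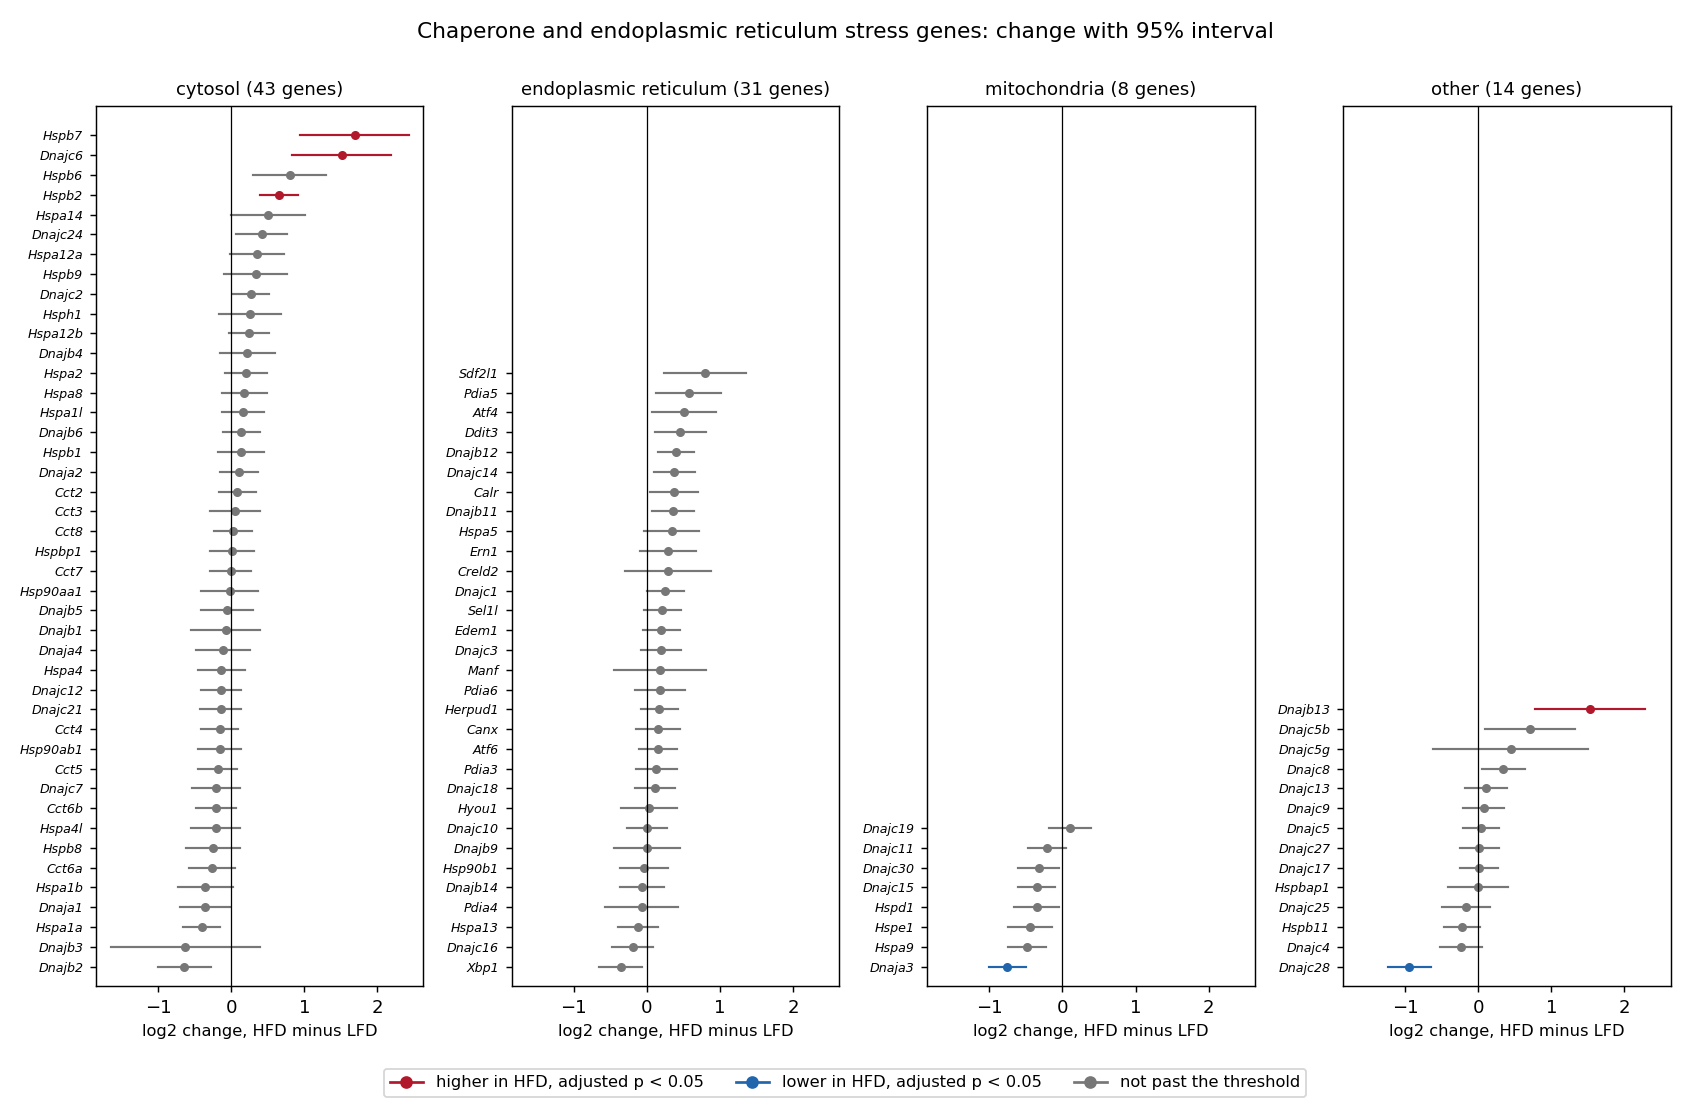
Log2 change (HFD minus LFD, x axis) of each of the 96 tested genes with its 95% interval, in 4 panels by compartment and sorted by size. The 4 red genes rose and the 2 blue genes fell past the threshold; grey genes did not pass, most endoplasmic reticulum genes lie to the right of 0 and 7 of the 8 mitochondrial genes to its left.

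The 6 called genes were each read from 1 brightest probe of 60 bases. The first 30 bases of each probe, 5' to 3', are printed because the results on these genes rest on them; coordinates are those of the array files for the whole probe, in build mm9; annotation of mm9 genes was not used here, so exons and untranslated regions are not given.
Hspb7, chr4:140980355-140980414, plus strand: ggcctaggtagactgcctcagggaagccag
Hspb2, chr9:50559211-50559270, minus strand: tggtccacagtgtatggtttggtcccttga
Dnajc6, chr4:101315033-101315092, plus strand: ttgagatgatagaactatattagctttgtg
Dnajb13, chr7:107654635-107654694, minus strand: aagacagatattcttctaccatcaaggaca
Dnaja3, chr16:4707389-4707448, plus strand: tactccgtggtaaatttcattgtcttttcc
Dnajc28, chr16:91614843-91614902, minus strand: acatggggccgagtcattgtgtaaagtctg

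Hspb7, a small heat shock protein best known from heart and skeletal muscle, had the largest rise of all members. Its signal was -2.90 and -2.16 in LFD and -0.90 and -0.79 in HFD, a change of 1.69 (SE 0.27), or 3.22-fold, with a limma adjusted p of 0.0387. Both HFD arrays lay above both LFD arrays. Its second probe read -2.94 and -2.69 in LFD and -2.23 and -1.85 in HFD, a change of 0.77 (SE 0.18) with a limma adjusted p of 0.0670, so that probe did not pass.

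Hspb2, a small heat shock protein also known mainly from muscle, rose by 0.65 (SE 0.10), or 1.57-fold, with a limma adjusted p of 0.0336. Its signal was -0.02 and -0.12 in LFD and 0.57 and 0.59 in HFD. The arrays of each diet lay close together and the diets did not overlap. Hspb6, the third of these muscle-type small heat shock proteins, read -3.06 and -2.64 in LFD and -2.15 and -1.95 in HFD. Its change of 0.80 (SE 0.18) did not pass, at a limma adjusted p of 0.0667, although the diets did not overlap. Cryab, a small heat shock protein outside the rule that is abundant in muscle and lens, had a change of 0.86 and did not pass, at a limma adjusted p of 0.137. The 3 remaining tested members of the family, the widely expressed Hspb1, the autophagy partner Hspb8 and the testis-type Hspb9, had changes of 0.14, -0.25 and 0.34 without passing.

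Markers of skeletal muscle were read beside these genes. Of 10 skeletal muscle markers 1 rose, the calcium buffer Pvalb, and none fell. Of the 10, 9 had a change above 0, against 52.2% of all genes. On both HFD arrays 5 were higher and 1 lower than on both LFD arrays, against 36.2% and 32.7% of all genes. At an unadjusted p under 0.05 from limma 4 were higher, against 3219 of all 17624 genes. Their summed signal was 2.87 and 4.17 in LFD and 5.80 and 4.15 in HFD, so the diets overlapped in the sum. The marker Acta1, which makes up much of that sum, skeletal actin, read 0.70 and 1.53 in LFD and 1.59 and 1.37 in HFD. Pvalb was not well above background in LFD. The 10 markers had a median change of 0.54, and their part in the rises of Hspb7 and Hspb2 was not tested.

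Dnajc6, known as auxilin, recruits Hsp70 to strip clathrin from vesicles and is best known from neurons. It rose by 1.51 (SE 0.25), or 2.85-fold, with a limma adjusted p of 0.0401. Its signal was -3.39 and -3.26 in LFD and -1.48 and -2.15 in HFD, so the HFD arrays differed from each other but both lay above LFD. Dnajb13, a J protein known from sperm flagella and cilia, rose by 1.53 (SE 0.28), or 2.88-fold, with a limma adjusted p of 0.0453. It read -3.86 and -3.11 in LFD and -2.02 and -1.89 in HFD. Both genes were dim in LFD yet well above background on all 4 arrays. The lowest log2 signal well above background was itself higher in HFD, at -4.33 and -3.18, than in LFD, at -4.62 and -4.54. Without the filter on dim probes the median change of all genes was 0.20, against 0.02 in the main setting. The part of this background difference in the rises of Dnajc6, Dnajb13 and Hspb7 was not tested.

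Dnaja3, the J protein that works with the mitochondrial Hsp70, fell by 0.76 on the log2 scale (SE 0.09), or 1.69-fold, with a limma adjusted p of 0.0258. Its signal was 1.98 and 1.98 in LFD and 1.19 and 1.26 in HFD. Its second probe, at 0.16 and 0.15 in LFD and -0.49 and -0.51 in HFD, fell by 0.66 with a limma adjusted p of 0.0299. It was the only member with more than 1 tested probe called. Dnajc28, a J protein of little known function, fell by 0.94 (SE 0.11), or 1.92-fold, with a limma adjusted p of 0.0237. It read 0.44 and 0.35 in LFD and -0.47 and -0.62 in HFD. Its dimmer probes, each above background on 1 HFD array, had changes of -0.33 and 0.16 and did not pass.

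**Figure D2:**
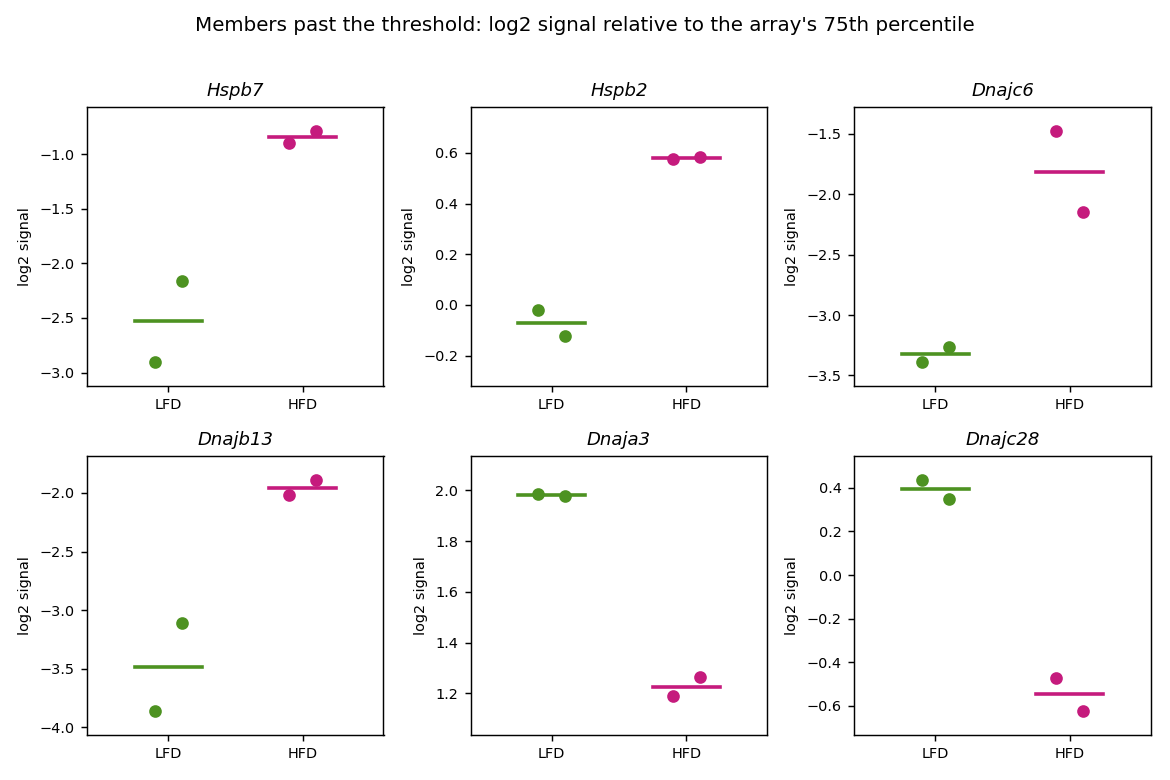
Log2 signal, scaled to each array's 75th percentile (y axis, own range in each panel) on each array (points) with the mean of each diet (lines) for the 6 members past the threshold. In each panel the 2 LFD and the 2 HFD points do not overlap; Hspb7, Hspb2, Dnajc6 and Dnajb13 are higher and Dnaja3 and Dnajc28 lower in HFD.

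In the endoplasmic reticulum no gene passed on its brightest probe, and most changes were small and above 0. Dimmer probes of Edem1 and Sel1l passed and are given below. The stretch of CCAAT and CCACG 9 bases apart, known as the endoplasmic reticulum stress element, is bound by Atf6 with NF-Y and is the classical switch of this gene set. In RefSeq promoter windows of build GRCm38.p6, which run from 250 bases before to 50 after a gene's start, it was searched on both strands. It was found in 7 of the 27 members of the endoplasmic reticulum set with a window in the table, and in 37 of all 27025 genes with one (0.137%). The matches, on the gene's strand and with the fixed letters in capitals, show which members carry the element in either orientation.
Calr, chr8:84847075-84847093, minus strand: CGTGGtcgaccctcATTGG
Canx, chr11:50325800-50325818, minus strand: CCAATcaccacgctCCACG
Creld2, chr15:88819520-88819538, plus strand: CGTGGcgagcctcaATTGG
Dnajc3, chr14:118937827-118937845, plus strand: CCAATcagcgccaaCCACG
Hsp90b1, chr10:86705638-86705656, minus strand: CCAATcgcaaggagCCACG
Hsp90b1, chr10:86705533-86705551, minus strand: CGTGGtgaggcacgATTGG
Hspa5, chr2:34772025-34772043, plus strand: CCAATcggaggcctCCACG
Pdia6, chr12:17266491-17266509, plus strand: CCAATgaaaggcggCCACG

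The 150 bases upstream of the start of Hspa5, the main Hsp70 of the organelle, show the element in place (capitals).
Hspa5, chr2:34771940-34772089, plus strand: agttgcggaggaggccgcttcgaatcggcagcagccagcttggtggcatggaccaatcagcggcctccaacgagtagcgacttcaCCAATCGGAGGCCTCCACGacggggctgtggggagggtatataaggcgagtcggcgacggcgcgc
The 7 tested carriers had a median change of 0.19, with 6 above 0 and none called. The 19 tested members whose window held no match had a median of 0.21, with 15 above 0 and none called. Other motifs of the response were searched in the same way: TGACGTGG, the unfolded protein response element, was in the window of 1 of 84 members, Dnajc25, and of 193 genes in all (0.714%). TGATGCAAT, an amino acid response element read by Atf4, was in none of the 84 and in 60 genes in all (0.222%).

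Hspa5 (BiP), which binds unfolded chains in the lumen and holds the stress sensors inactive, read 5.27 and 5.0 in LFD and 5.39 and 5.55 in HFD. The diets did not overlap, but the change of 0.34 (SE 0.14, 95% interval -0.04 to 0.72) did not pass, at a limma adjusted p of 0.173. The other chaperones of the lumen lay nearer to 0. Hsp90b1 (Grp94), the Hsp90 of the lumen, read 5.09 and 4.85 in LFD and 4.92 and 4.95 in HFD, a change of -0.04. Hyou1, a nucleotide exchange factor for Hspa5, had a change of 0.03 and Hspa13 of -0.12. For Hsp90b1 and Hyou1 the arrays of the diets overlapped, and the sign of both changes turned when single arrays were left out.

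The stress-induced proteins of the lumen included the largest change of the compartment on brightest probes. Sdf2l1, a partner of Hspa5 and its J proteins, read 1.0 and 0.51 in LFD and 1.44 and 1.66 in HFD. Its change of 0.80 (SE 0.21), or 1.74-fold, did not pass, at a limma adjusted p of 0.0811. On brightest probes Sdf2l1 was the only 1 of the 31 genes to reach 1.5-fold. Creld2 read 3.83 and 3.30 in LFD and 3.73 and 3.97 in HFD. Manf, a secreted stress protein, read 2.44 and 1.87 in LFD and 2.20 and 2.47 in HFD. In both genes LFD replicate 1 lay above an HFD array, so the diets overlapped, and their changes were 0.29 (SE 0.22) and 0.18 (SE 0.23).

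Of 6 tested disulfide isomerases and lectin chaperones 5 had a change above 0 and none passed. Pdia5 read -0.07 and -0.45 in LFD and 0.26 and 0.36 in HFD, a change of 0.57 (SE 0.16) with a limma adjusted p of 0.0957. Calr (calreticulin), which holds glycoproteins through their sugars, read 3.18 and 2.96 in LFD and 3.42 and 3.47 in HFD, a change of 0.38 (SE 0.12). These were the 2 largest changes of the group. Its membrane-bound relative Canx (calnexin) had a change of 0.15, their oxidoreductase partner Pdia3 of 0.13, Pdia6 of 0.18 and Pdia4 of -0.07.

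The 10 tested J proteins placed in the endoplasmic reticulum had 8 changes above 0 and a median of 0.15. On both HFD arrays 6 were higher and 1 lower than on both LFD arrays, against 36.2% and 32.7% of all genes. All tested probes of Dnajb12 and Dnajc1 had changes above 0. Other probes reached the opposite sign in Dnajc14 (-0.11), Dnajc3 (-0.11) and Dnajc16 (0.26), without a call. The higher genes included Dnajb12 at 0.39, Dnajc14 at 0.38, Dnajb11 at 0.36, Dnajc1 at 0.26 and Dnajc3 at 0.19. Of these Dnajb12 had the smallest limma adjusted p, 0.0667. The brightest probe of Dnajc16 read -0.28 and -0.14 in LFD and -0.44 and -0.36 in HFD, with both HFD arrays lower. Its change of -0.19 (SE 0.10) did not pass, at a limma adjusted p of 0.263. Dnajb9 (ERdj4), a strong target of Xbp1 that represses Ern1, read 1.34 and 0.99 in LFD and 1.28 and 1.06 in HFD, a change of 0.00 (SE 0.17). The degradation genes Herpud1, Edem1 and Sel1l select misfolded proteins and pass them out for destruction. Their brightest probes had changes of 0.17, 0.20 and 0.21, and none passed. All were higher on both HFD arrays than on both LFD arrays, against 36.2% of all genes. Dimmer probes of Edem1 and Sel1l rose by 0.83 and 0.80 and passed.

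The sensors and transcription factors had changes on both sides of 0, and none passed. Xbp1, whose spliced messenger encodes the factor of the IRE1 branch, read 2.52 and 2.42 in LFD and 2.04 and 2.18 in HFD, a change of -0.36 (SE 0.11) with a limma adjusted p of 0.105. On brightest probes it had the lowest change of the 31 genes. Its splicing was not measured. Atf4, the factor of the PERK branch, read 0.80 and 1.16 in LFD and 1.41 and 1.57 in HFD, a change of 0.51 (SE 0.16) with a limma adjusted p of 0.116. Ddit3 (CHOP), its target in prolonged stress, read 0.11 and 0.32 in LFD and 0.59 and 0.75 in HFD, a change of 0.46 (SE 0.13) with a limma adjusted p of 0.0946. The diets did not overlap for these 3 genes, as for 68.9% of all genes, with Xbp1 lower and Atf4 and Ddit3 higher in HFD. The sensors Ern1 and Atf6 had changes of 0.29 and 0.15 and did not pass. The response is switched largely after transcription, through splicing, cleavage and translation, which signals on these arrays do not measure. With limma's trend and robust options, another variance model, Ddit3 and Xbp1 of this group and Sdf2l1, Pdia5, Dnajb11, Dnajb12 and Dnajc14 of the groups above passed, with the signs given here. That model called 19.8% of the tested members and 20.5% of all genes.

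Genes of the same pathways outside the rule were read as well. Of 22 tested genes of the unfolded protein response and the integrated stress response, 3 rose and 1 fell, against 5.78% and 5.61% of all genes, and the median change was 0.16. Atf3, a stress-induced repressor, read 0.01 and 0.16 in LFD and 2.45 and 2.19 in HFD, a rise of 2.23 (SE 0.14) with a limma adjusted p of 0.0137. Creb3, a membrane-bound factor related to Atf6, rose by 0.93, and Wfs1, a membrane protein of the organelle that restrains Atf6, rose by 0.85. Asns (asparagine synthetase), a classical target of Atf4, fell by 1.02 from 4.79 and 4.73 to 3.67 and 3.81, with a limma adjusted p of 0.0207. Chac1 and Trib3, further targets of Atf4, had changes of 0.03 and 0.06. The calls of Creb3, Wfs1 and Asns were lost with any single array left out and with the replicate block, and that of Atf3 without either HFD array. The changes of Atf3 and Asns lay on opposite sides of 0. Of 33 further folding and degradation genes of the organelle, Erp29 rose by 0.58 (limma adjusted p of 0.0488), none fell, and 24 had a change above 0 with a median of 0.11. The macrophage markers given above had a median change of 1.27. B and plasma cell markers, cells rich in these chaperones, had summed signals of 21.1 and 10.05 in LFD and 8.00 and 16.0 in HFD, with 1 rise, Sdc1, among 8 tested, all above background on both LFD arrays. Their parts in the changes of this compartment were not tested.

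**Figure D3:**
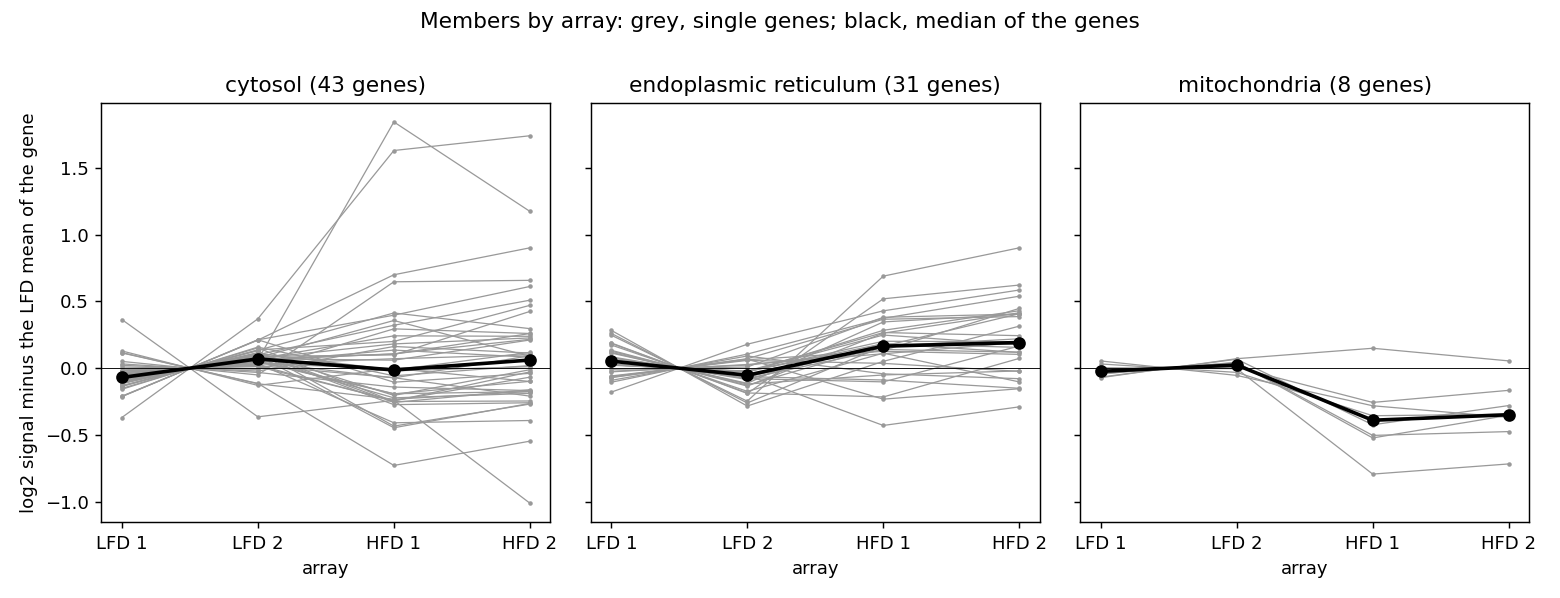
Log2 signal minus the gene's LFD mean (y axis) on each of the 4 arrays (x axis) for the cytosol, the endoplasmic reticulum and mitochondria; grey lines join the values of single genes, black points are their median, and the order of the arrays within a diet has no meaning. The median of the 31 endoplasmic reticulum genes lies above the LFD arrays on both HFD arrays, that of the 8 mitochondrial genes below, and that of the 43 cytosolic genes near 0.

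The mitochondrial set is small, and 7 of its 8 genes read lower on both HFD arrays than on both LFD arrays, against 32.7% of all genes. Hspd1 (Hsp60) and Hspe1 (Hsp10), the barrel and the lid of the mitochondrial chaperonin, lie head to head on chromosome 1, and the 215 bases between their RefSeq starts hold the promoter of each. The stretch is printed because both genes had a change below 0; its capitals mark overlapping heat shock elements, each of 3 blocks of GAA and TTC in turn, 2 bases apart. It is on the strand of Hspe1, in build GRCm38.p6.
Hspe1 and Hspd1, chr1:55087933-55088147, plus strand: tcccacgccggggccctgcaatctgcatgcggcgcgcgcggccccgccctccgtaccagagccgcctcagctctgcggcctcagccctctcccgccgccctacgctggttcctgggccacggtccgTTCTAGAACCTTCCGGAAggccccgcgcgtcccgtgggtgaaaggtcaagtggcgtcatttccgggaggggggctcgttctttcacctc
Hspd1 read 5.68 and 5.82 in LFD and 5.32 and 5.47 in HFD, a change of -0.35 (SE 0.11) with a limma adjusted p of 0.116. Hspe1 read 3.80 and 3.88 in LFD and 3.32 and 3.49 in HFD, a change of -0.44 (SE 0.11) with a limma adjusted p of 0.0785. Neither passed, though the diets did not overlap in either gene. The same element was in the windows of 4 of 84 members, the other two being Dnajb6 and Hsph1, and of 179 of 27025 genes (0.662%). Dnajb6 had a change of 0.14 and Hsph1 of 0.26, so the 4 carriers did not share a sign.

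Hspa9 (mortalin), the mitochondrial Hsp70 that pulls imported chains into the matrix, read 5.01 and 5.10 in LFD and 4.55 and 4.58 in HFD. Its change of -0.49 (SE 0.10) had a limma adjusted p of 0.0517, just short of the threshold, and its second probe had a change of -0.48. At the same threshold Hspa9 passed with normexp, quantile normalization, median scaling, the stricter filter on dim probes and the trend and robust options. Hspe1 passed with normexp, quantile normalization and the trend and robust options, and Hspd1 with normexp. These settings called 12.3% to 20.5% of all genes, against 11.4% in the main setting. Dnajc15, a J protein of the import motor, read 5.16 and 5.10 in LFD and 4.78 and 4.79 in HFD, a change of -0.35 with a limma adjusted p of 0.0842. Dnajc30 had a change of -0.33 and Dnajc11 of -0.21. Dnajc19, the other import-motor J protein, read 4.37 and 4.51 in LFD and 4.59 and 4.49 in HFD, a change of 0.10 with overlapping diets.

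Of 13 other mitochondrial chaperones and proteases 2 fell, against 5.61% of all genes, and none rose, against 5.78%, with a median change of -0.33. Clpp, the matrix protease, fell by 0.64 from 3.96 and 4.06 to 3.29 and 3.45, with a limma adjusted p of 0.0423. Bcs1l, an assembly chaperone of respiratory complex III, fell by 0.58 from 1.29 and 1.41 to 0.70 and 0.84, with a limma adjusted p of 0.0488. The calls of Clpp and Bcs1l, like that of Erp29 above, were lost with any single array left out and with the replicate block. Brown fat is rich in mitochondria, and 4 of its 7 markers fell, with a median change of -1.76 over the 7. Ucp1, its uncoupling protein, read 5.10 and 2.82 in LFD and -1.08 and -1.02 in HFD. The LFD arrays differed from each other in Ucp1, and both lay above HFD. The part of brown fat RNA in the mitochondrial changes was not tested.

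In the cytosol the changes of the core machines were small. Hspa8 (Hsc70), the constitutive Hsp70, read 5.80 and 5.94 in LFD and 5.98 and 6.13 in HFD, a change of 0.18 (95% interval -0.13 to 0.49). Hsp90aa1 and Hsp90ab1, the inducible and constitutive Hsp90, had changes of -0.02 (95% interval -0.41 to 0.37) and -0.16 (95% interval -0.45 to 0.14). Hsph1 (Hsp110), which recharges Hsp70, had a change of 0.26. None passed, and the 95% intervals of Hspa8, Hsp90aa1, Hsp90ab1 and Hsph1 all span 0.

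The heat-inducible Hsp70 genes had changes below 0. Hspa1a read 1.82 and 1.89 in LFD and 1.45 and 1.47 in HFD, a change of -0.40 (SE 0.09) with a limma adjusted p of 0.0679. Hspa1b read -0.20 and 0.06 in LFD and -0.51 and -0.34 in HFD, a change of -0.35 (SE 0.14). These genes are near-identical copies, and their probes may not tell them apart. The 250 bases before their starts differ at 3 positions. The second probe of Hspa1a had a change of -0.38 and that of Hspa1b of 0.15. Among the other Hsp70 relatives, Hspa14 had a change of 0.50 and Hspa12a of 0.35, and neither passed. The diets did not overlap in either, as in 68.9% of all genes. In all, 8 of the 12 tested genes of this group were above 0, with a median of 0.17.

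Of 15 tested cytosolic J proteins 6 had a change above 0, and the median was -0.07. Dnajb2, a neuron- and muscle-rich J protein that steers clients to the proteasome, read 2.52 and 2.29 in LFD and 1.67 and 1.86 in HFD. Its change of -0.64 (SE 0.13) had a limma adjusted p of 0.0587. Dnajb1 (Hsp40), the main heat-inducible J protein, had a change of -0.07 with overlapping diets. Dnaja1, a farnesylated partner of Hspa8, had a change of -0.36 on its brightest probe, and its other probes of -0.62 and -0.70. Dnajb3, a testis-type gene, had a change of -0.63 with overlapping diets and was above background on 1 HFD array.

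The chaperonin CCT, which folds actin and tubulin, is built of different subunits that are needed in equal number, and the changes of its genes were small. The 8 tested genes ranged from -0.27 to 0.09 with a median of -0.08, 3 were above 0, none passed, and none had an unadjusted p under 0.05. They include both Cct6a and Cct6b but not the subunit Tcp1, which lies outside the rule and had a change of -0.05. Cct2 had a change of 0.09, Cct3 of 0.05, Cct8 of 0.03 and Cct7 of -0.00, values so near 0 that the sign of the first 3 depends on the scaling: under median scaling, which lowers every gene alike, they were below 0. Cct4, Cct5, Cct6b and Cct6a had changes of -0.15, -0.18, -0.21 and -0.27, and in these 4 both HFD arrays were lower. Of the 8 genes 4 were thus lower and 1 higher with non-overlapping diets, against 32.7% and 36.2% of all genes. Of 26 other cytosolic chaperones and co-chaperones none passed at the adjusted threshold, and their median change was -0.03. At an unadjusted p under 0.05 there were 6 of them, against 34.9% of all genes.

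Of the 14 tested genes placed in none of these compartments, besides Dnajb13 and Dnajc28, none passed, and the median of all 14 was 0.03. The cysteine string relatives Dnajc5b and Dnajc5g, testis-type J proteins that are dim here, had changes of 0.71 (SE 0.23) and 0.44 (SE 0.39). Dnajc5b was above background on 1 HFD array. On HFD replicate 2 it read -3.58, below that array's lowest signal well above background, -3.18. The part of the background difference between the diets in its change was not tested. Dnajc8, a J protein of the spliceosome, had a change of 0.34, Dnajc4 of -0.23 and the intraflagellar transport protein Hspb11, which is no small heat shock protein by function, of -0.22. The whole J protein family, 42 tested genes over all compartments, had 24 changes above 0, against 52.2% of all genes. It had 2 rises and 2 falls, against 5.78% and 5.61% of all genes.

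Several genes were read by more than 1 probe, and the probes did not always tell the same story. Of 47 such genes, 16 had probes with changes of opposite sign. In all 10 member probes were called, 6 higher and 4 lower in HFD, in 9 genes, against 10.7% of all tested probes. A dimmer probe of Edem1, the lectin that hands misfolded glycoproteins to degradation, read 1.02 and 1.0 in LFD and 1.81 and 1.86 in HFD. It rose by 0.83 with a limma adjusted p of 0.0227, whereas the brightest probe had a change of 0.20. A dimmer probe of Sel1l, the scaffold of the ubiquitin ligase Syvn1, read -0.75 and -0.53 in LFD and 0.16 and 0.16 in HFD. It rose by 0.80 with a limma adjusted p of 0.0333, whereas the brightest probe had a change of 0.21. These degradation genes therefore passed or did not pass by the choice of probe. A dim probe of Cct4 fell by 0.93 with a limma adjusted p of 0.0311 but was not well above background in HFD, so its fall was at least 1.29-fold, the mean of its LFD arrays against the lowest signal well above background or its own signal, whichever was higher on each HFD array. Dnajb6 had a change of 0.14 on its brightest probe and of -0.35 and -0.28 on the others.

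**Figure D4:**
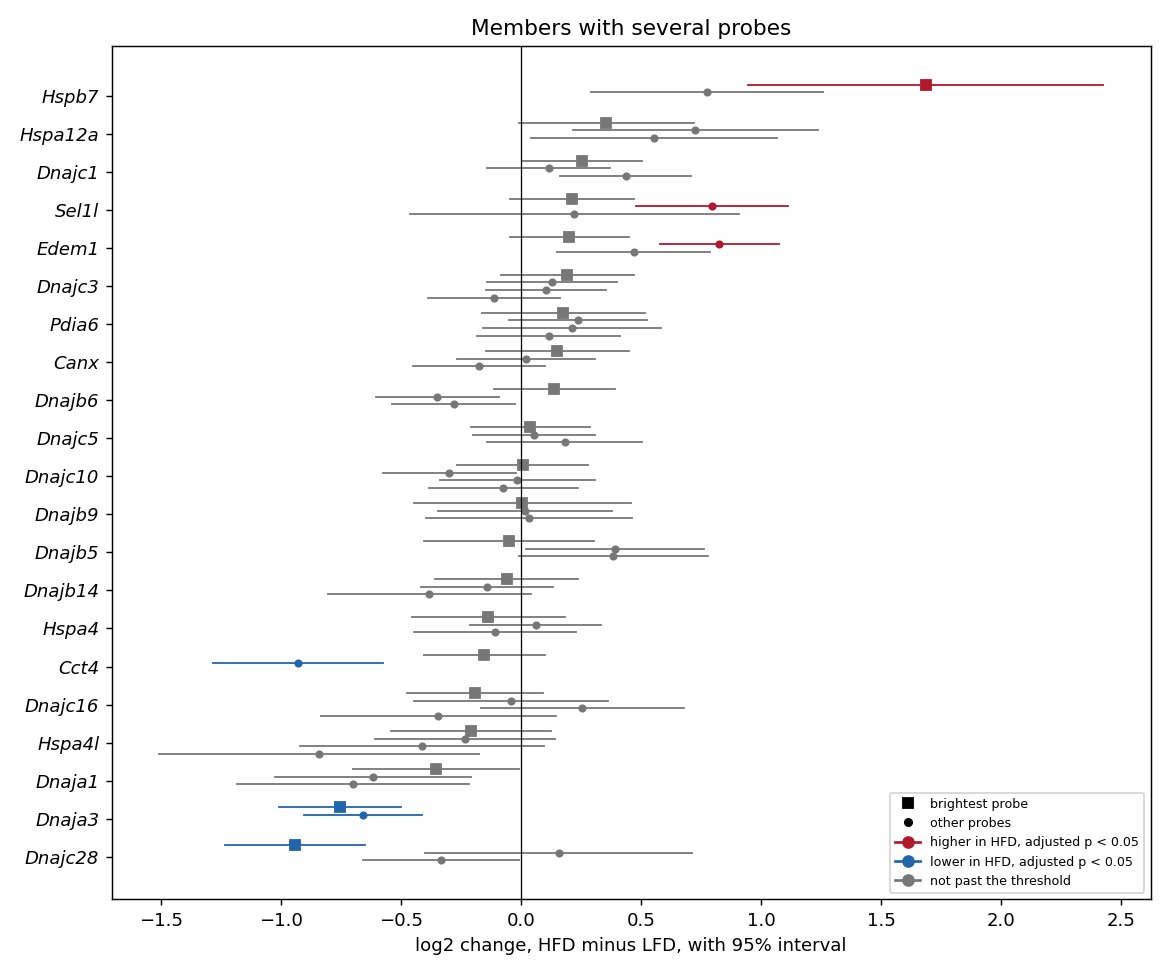
Log2 change (HFD minus LFD, x axis) of every tested probe with its 95% interval for the 21 members with at least 3 tested probes, or with at least 2 of which 1 was called; squares are the brightest probes and circles the others. The called probes of Edem1, Sel1l and Cct4 are not the brightest ones, and Dnaja3 alone has 2 called probes.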

How the data were processed

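White adipose tissue RNA (500 ng per sample) was measured on 4 one-colour Agilent arrays, 2 per diet, all on 1 slide and 1 scan per the file headers. The intensity values are the scanner output the authors deposited: spot signals that Feature Extraction had background-subtracted and detrended, per the file headers, with no normalisation between arrays. The headers give version 11.0.1.1 and the submitters' processing notes 11.5.1.1. The value table that the authors deposited holds the ratio of each spot's signal to its array's 75th percentile, found by dividing one by the other; it is linear, and its column medians were 0.117, 0.127, 0.130 and 0.131. Depth has no counterpart on arrays; their number limits the precision.

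Processed signals of non-control spots were divided by their array's 75th percentile and put on the log2 scale. Outlier spots (60 to 115 per array) were left out and spots of a probe averaged. A probe was above background on an array where over 50% of its spots were flagged so, and was tested where this held on both arrays of at least 1 diet. The fit was limma 3.58.1 in R 4.3.3, with lmFit and eBayes and a two-sided test (tables were read with data.table, version 1.17.8), with 2 residual and 2.24 prior degrees of freedom. Gene names are those of the files. Of the 185 member probes, 160 matched a RefSeq transcript and none changed name. Promoter windows came from a RefSeq table of build GRCm38.p6, which held 84 of the 102 members.

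The members and lists were chosen with earlier results of these data known, and Cct8l1 was placed by its name alone. Genes named are the called members, the 3 largest rises and falls of each compartment, a fixed panel and the called genes of the other chaperone and stress lists; Dnajb12, Dnajc14, Dnajc1, Hspa14, Hspa12a, Cct6b, Dnajc30, Dnajc11, Dnajb6, Dnajc25 and Dnajc8, and Cryab, Chac1 and Trib3 of the other lists, were added after their values were seen. T cell and mammary markers were read too: of 7 and 6 tested, none and 1 (Krt5, which fell) passed. The comparison of HFD with LFD was tested on simulated data of 26054 probes, of which 200 had been changed by 2-fold or more, and recovered 70.5% of these. Of the 96 tested members 85 changed by less than 1.5-fold, so this share is no detection rate for changes of their size. The alternatives were quantile and median scaling, normexp (offset 50), the value table, stricter and no filtering of dim probes, no removal of outlier spots, probes averaged per gene, trend and robust options, a block for the replicate number, leaving out each array, a threshold of 0.10 and a minimum of 2-fold.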

Additional observations from a re-analysis of the deposited data

How the results depend on the processing

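The calls depend on the settings. In every alternative the 6 called members kept their sign, and 7 of 8 mitochondrial members stayed below 0. With non-overlapping diets, leaving out a single array could not turn these signs. The thresholds, the trend and robust options and the replicate block leave the change itself as it is. The deposited value table and the fit with outlier spots gave the counts of the report. Of the whole array 1018 genes rose and 988 fell in the main setting, with 4 and 2 members. The counts of rises and falls were 1616 and 1234 with normexp (members 7 and 7), 970 and 1226 with quantile normalization (4 and 5) and 851 and 1325 with median scaling (3 and 4), so that scaling moved the split. They were 1597 and 1302 for probes above background on all arrays (6 and 5), 1824 and 1794 with trend and robust options (11 and 8), 2255 and 2174 at a threshold of 0.10 (10 and 7), and 496 and 467 with a 2-fold minimum (3 and 0). Without a filter on dim probes limma called 0 and 0 genes and 0 and 0 members, with 17 members at an unadjusted p under 0.05. With each array left out in turn, 9 to 469 genes rose and 9 to 338 fell, and 0 to 2 members rose and 0 fell. With the replicate block 220 and 205 genes and 0 and 0 members passed. The deviations of same-numbered arrays correlated at -0.0046 across probes. No shared shift was thus seen, but this cannot tell whether the samples were paired.

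Medians stood at -0.078 (cytosol), 0.095 (endoplasmic reticulum) and -0.439 (mitochondria) under median scaling, and at -0.404 and -0.395 in mitochondria under normexp and quantile normalization. Leaving out single arrays gave -0.035 to 0.116, 0.144 to 0.237 and -0.390 to -0.349. Signs turned in members that were not called. With normexp Cct8 stood at -0.0072, Dnajb9 at -0.077, Hsp90aa1 at 0.028 and Pdia4 at 0.067. With quantile normalization Cct8 stood at -0.046, Dnajb9 at -0.040 and Hyou1 at -0.017. With median scaling Cct2 stood at -0.0024, Cct3 at -0.036, Cct8 at -0.059, Dnajb9 at -0.083 and Hyou1 at -0.056. With the mean of a gene's probes Canx stood at -0.0016, Dnajb1 at 0.032 and Dnajb6 at -0.164. Leaving out single arrays spread Cct3 from -0.058 to 0.162, Cct7 from -0.078 to 0.070, Cct8 from -0.0051 to 0.063, Dnajb1 from -0.285 to 0.141, Dnajb9 from -0.169 to 0.179, Dnajc5g from -0.108 to 0.993, Hsp90aa1 from -0.177 to 0.139, Hsp90b1 from -0.154 to 0.083, Hyou1 from -0.103 to 0.166, Manf from -0.101 to 0.467 and Pdia4 from -0.257 to 0.114. The cause was not tested. Arrays at 2 per diet limit all of this, and a gene left uncalled may still have differed.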
